A study of Mus musculus with 6 samples.

Results

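The 10 genes described here encode the adhesive core of the junctions between epithelial cells: the classical cadherins Cdh1 and Cdh3, the catenins Ctnna1, Ctnnb1 and Jup, the desmosomal cadherins Dsg2, Dsg3, Dsc2 and Dsc3, and the desmosomal plaque protein Pkp1. They were taken by symbol from the deposited table of 24067 genes, and all 10 were found there, with 13 annotated transcripts. All 6 libraries came from the submandibular gland of ICR mice at E13: 3 controls, and 3 treated with blebbistatin, a small molecule that inhibits non-muscle myosin II. The series title speaks of epithelial buds, while the tissue label names the gland. The sources used here do not state the dose, the vehicle, the duration or how many glands went into a library. No label ties the 3 libraries of a group to separate cultures or litters, so p-values reflect only how far these libraries scatter, and that scatter may be technical.

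In an adherens junction, classical cadherins of neighbouring cells bind each other outside the cell, and inside it β-catenin or plakoglobin links the cadherin to α-catenin and so to the actomyosin cortex on which blebbistatin acts. In a desmosome, desmogleins and desmocollins take the place of classical cadherins, and plakoglobin, plakophilins and desmoplakin join them to keratin filaments. Plakoglobin is thus shared by both junctions, while β-catenin is also the transcriptional effector of Wnt signalling. In the branching salivary gland, E-cadherin is known as the cadherin that holds epithelial cells of the buds together.

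The values are FPKM, fragments per kilobase of transcript, scaled to the library total, so levels can be compared between genes as well as between libraries. Low values of genes with 1 transcript stepped by whole fragments, and these steps put the depth at 29200000 to 35700000 fragments per library. The tissue carried epithelial RNA: all 8 epithelial markers had a mean of at least 1 FPKM, against 0 of 6 endothelial, 0 of 7 neuronal and glial and 1 of 5 leukocyte markers. Of 9 mesenchymal markers 5 reached that level, with Col1a1 between 0.588 and 3.06 FPKM. Vim made up most of their sum, at 276 to 337 FPKM in controls and 328 to 370 FPKM in treated libraries. Of the 9 only 2, Vim among them, were higher in mean after treatment, and Col1a1 was at 1.58 ± 1.28 and 0.762 ± 0.226 FPKM. Of 5 erythroid markers 3 had a mean of at least 1 FPKM. The sums over the 5 were 237, 1.87 and 192 FPKM in controls and 1.18, 6.41 and 62.8 FPKM in treated libraries, which set libraries of the same group apart. The 7 end bud markers summed to 780 to 856 FPKM in controls and 524 to 656 FPKM in treated libraries, with 0 of the 7 higher in mean after treatment. The sums of the 7 markers of basal and ductal epithelium overlapped between the groups, at 464 to 660 and 460 to 717 FPKM, with 4 of the 7 higher in mean after treatment. In bulk tissue, fewer cells of a type and less RNA per cell cannot be told apart.

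Across the 6 libraries the catenins and classical cadherins stood far above the desmosomal cadherins, and Ctnnb1 above them all. In order of mean level, Ctnnb1 (470 FPKM) was followed by Ctnna1 (155 FPKM), Cdh1 (134 FPKM), Jup (96.9 FPKM), Cdh3 (62.2 FPKM), Dsg2 (22.6 FPKM), Pkp1 (21.6 FPKM), Dsc2 (18.6 FPKM), Dsc3 (2.35 FPKM) and Dsg3 (0.204 FPKM). The ranges of neighbours in this order overlapped for Ctnna1 and Cdh1, for Dsg2 and Pkp1, and for Pkp1 and Dsc2, and for no other neighbours. Within each of the 6 libraries Ctnna1 was above Cdh1 and Pkp1 above Dsc2, whereas Dsg2 was above Pkp1 in 4 of them. Ctnnb1 lay at percentile 98.8 of the tested genes by mean level, Cdh1 at 95.6 and Dsc3 at 10.1.

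**Figure D1:**
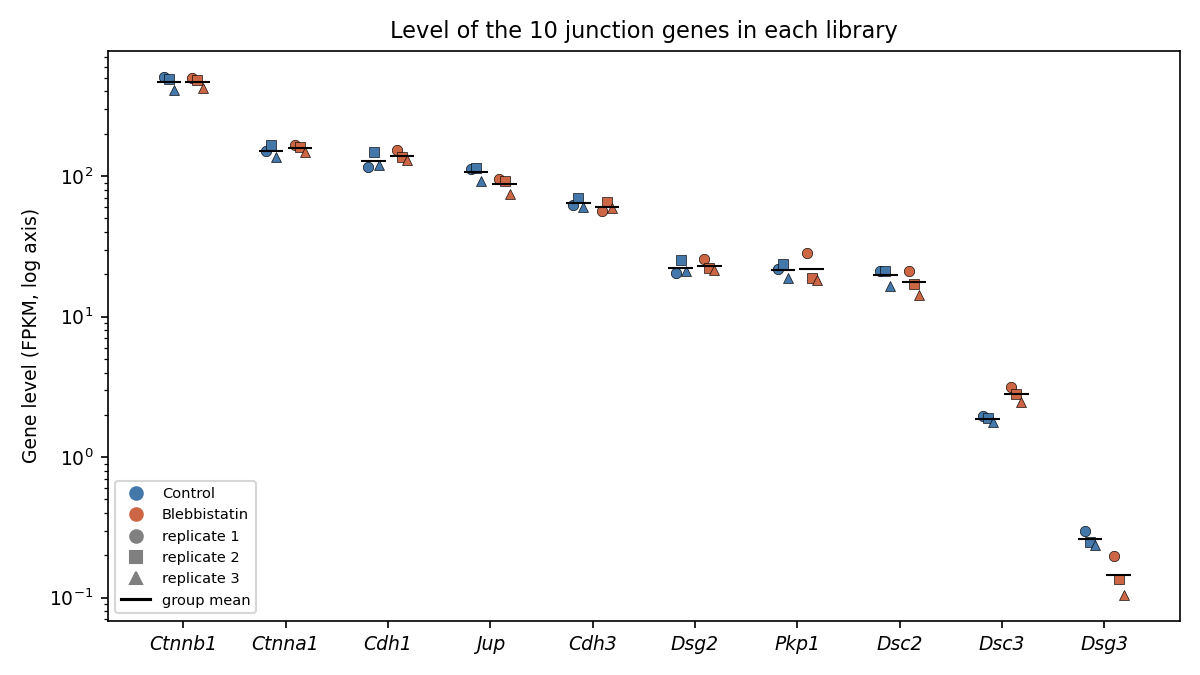
Level of the 10 genes in each library, in FPKM on a log axis, with controls in blue, blebbistatin in orange, marker shape for the replicate number and a black line for the mean of each group. The members run from Ctnnb1 at 410 to 510 FPKM down to Dsg3 at 0.105 to 0.299 FPKM, and the groups are apart only for Dsc3 and Dsg3.

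Blebbistatin was compared with control to ask whether these genes differ in level when myosin II is blocked. Of the 10 genes, 9 had a mean of at least 1 FPKM and were tested, and Dsg3 did not reach it. None of the 9 passed an adjusted p of 0.05 in limma's test on log2(FPKM + 1), where 0.078% of the 11540 tested genes passed. At an unadjusted p under 0.05 there was 1 of 9, Dsc3, against 9.36% of all tested genes. The groups did not overlap for 1 of 9, again Dsc3, against 14.3% of all tested genes, 7.48% with treated libraries higher and 6.8% with them lower. Means of the log2 values were higher in 6 of 9 and lower in 3, against 55.2% higher over all tested genes. The median log2 fold change, blebbistatin minus control, was 0.0030 over the 9 and 0.015 over all tested genes, and the median size without sign was 0.079 and 0.082. The 9 genes thus differed about as much as the typical gene of these libraries.

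Among the classical cadherins, Cdh1, which encodes E-cadherin, stood at 116, 149 and 121 FPKM in control replicates 1 to 3 and at 154, 136 and 130 FPKM in blebbistatin replicates 1 to 3. The groups overlapped, since control replicate 2 was above 2 of the treated libraries. The means were 128 ± 17.7 and 140 ± 12.4 FPKM (SD, n = 3). On the log2 scale the difference was 0.13 ± 0.12 (SE; limma, adjusted p = 0.941). The 95% interval of that difference ran from -0.15 to 0.41, or from 0.898 to 1.33 as a fold of FPKM + 1. Cdh1 lies on chromosome 8 from 106603368 to 106670246 on mm10, and its transcript has 16 exons.

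Cdh3, which encodes P-cadherin, lies next to it from 106510852 to 106556911, with 46456 nt between the annotated genes. It stood at 62.3, 69.4 and 60.2 FPKM in controls and at 56.7, 65.9 and 59.0 FPKM in treated libraries. The groups overlapped, with means of 64.0 ± 4.85 and 60.5 ± 4.78 FPKM and a 95% interval of the log2 difference from -0.31 to 0.15. Cdh1 made up 65.1% to 68.2% of the summed FPKM of both genes in controls and 67.4% to 73.1% in treated libraries. The share of blebbistatin replicate 1 was the highest, and that of blebbistatin replicate 2 lay within the controls. The ratio of Cdh3 to Cdh1 was 0.501 ± 0.035 in controls and 0.435 ± 0.059 in treated libraries (exact permutation p = 0.2, two-sided, adjusted p = 0.333 over the 5 ratios compared).

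None of the 18 other cadherins listed came near these levels. Cdh1 and Cdh3 together took 93.2% to 95.5% of the summed FPKM of the 20 listed classical and related cadherins in every library. Of the other 18, only Cdh4, Cdh11 and Cdh24 had a mean of at least 1 FPKM, 2 of them higher and 1 lower, and 0 passed (limma). Cdh11, a cadherin known from mesenchyme, was at 1.99 ± 0.064 and 2.49 ± 0.288 FPKM, with no overlap between the groups (adjusted p = 0.589, limma). Cdh4, which encodes R-cadherin, was at 1.24 ± 0.104 and 0.856 ± 0.246 FPKM, also without overlap (adjusted p = 0.600, limma). Over all tested genes 14.3% did not overlap. Cdh24 was at 7.46 ± 1.58 and 7.74 ± 0.834 FPKM. Cdh2, which encodes the neural cadherin that replaces E-cadherin in many migrating cells and was chosen after its values were seen, did not reach the filter, at 0.196, 0.252 and 0.260 FPKM in controls and 0.520, 0.367 and 0.215 FPKM in treated libraries.

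Of the catenins, Ctnna1, which encodes αE-catenin, the link to actin, stood at 151, 166 and 136 FPKM in controls and at 167, 161 and 147 FPKM in treated libraries. All 3 treated values lay among or just above those of the controls. The log2 difference was 0.07 ± 0.11 (SE; limma, adjusted p = 0.984). Ctnnb1, which encodes β-catenin, stood at 510, 490 and 410 FPKM in controls and at 498, 484 and 427 FPKM in treated libraries. The group means differed by 0.090% of the control mean, less than the spread within either group. Its 95% interval ran from -0.28 to 0.29 on the log2 scale, so that folds of FPKM + 1 between 0.823 and 1.22 lay within it. The ratio of Ctnnb1 to Ctnna1 was between 2.89 and 3.38 in the 6 libraries.

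Jup, which encodes plakoglobin, the catenin of both kinds of junction, had the lowest log2 fold change of the 9 tested genes. It stood at 112, 115 and 92.7 FPKM in controls and at 95.4, 91.8 and 74.9 FPKM in treated libraries. The groups overlapped through control replicate 3, which was below blebbistatin replicate 1. The means were 107 ± 12.1 and 87.3 ± 11.0 FPKM (SD, n = 3). On the log2 scale the difference was -0.28 ± 0.13 (SE; limma, adjusted p = 0.556), with a 95% interval from -0.58 to 0.010. The end bud markers given above were also lower in treated libraries. Of the 8 epithelial markers 2 were higher in mean after treatment. Their sums overlapped, at 1256 to 1640 FPKM in controls and 1147 to 1503 FPKM in treated libraries. The part of either set of markers in the values of Jup was not tested.

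Measured against the RNA of its paralog Ctnnb1 within the same library, Jup RNA was lower in every treated library than in each control. The ratio of Jup to Ctnnb1 was 0.219, 0.235 and 0.226 in controls and 0.192, 0.189 and 0.175 in treated libraries, so that the groups were apart although those of each gene alone were not. The means were 0.227 ± 0.0077 and 0.186 ± 0.0088 (SD, n = 3; exact permutation p = 0.1, two-sided, the smallest that 3 against 3 libraries can give, adjusted p = 0.25 over the 5 ratios). A ratio within a library does not depend on its total, but it shows unequal levels of a pair of genes and not which of them differed.

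The stretches upstream of these catenin paralogs show how unlike their promoters are in base composition, with CpG pairs in capitals. They are the 250 bases before the annotated start, from RefSeq on GRCm38.p6, at chr9:120933150-120933399 on the plus strand for the upstream start of Ctnnb1 and at chr11:100397791-100398040 on the minus strand for Jup. Of the members, 2 had an entry in the promoter table.
Ctnnb1: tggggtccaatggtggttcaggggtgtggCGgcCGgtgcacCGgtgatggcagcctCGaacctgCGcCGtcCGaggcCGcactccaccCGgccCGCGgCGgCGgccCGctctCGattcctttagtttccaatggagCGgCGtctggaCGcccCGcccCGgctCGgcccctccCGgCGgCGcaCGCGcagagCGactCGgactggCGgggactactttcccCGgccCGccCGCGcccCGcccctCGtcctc
Jup: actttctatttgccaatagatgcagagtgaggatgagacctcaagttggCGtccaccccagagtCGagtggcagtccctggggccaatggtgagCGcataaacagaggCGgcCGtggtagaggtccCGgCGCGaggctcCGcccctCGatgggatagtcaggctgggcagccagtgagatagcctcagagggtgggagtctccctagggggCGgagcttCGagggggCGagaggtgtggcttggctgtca
The first window holds 35 CpG pairs and 74.8% G and C bases, the second 13 pairs and 62.0%. At least 35 pairs stood in 2.97% and at least 13 in 31.5% of all 32851 windows of this length, whose median was 6. These counts describe the letters alone.

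Ctnnb1 has another annotated transcript that starts 178 nt further downstream, with a first exon of 39 nt in place of 239 nt and the same coding sequence of 2343 nt. On chromosome 9 these first exons run from 120933578 to 120933616 and from 120933400 to 120933638. The downstream form took 23.4%, 32.1% and 42.9% of the summed FPKM of the gene in controls and 34.0%, 37.6% and 45.7% in treated libraries. The libraries of a group were further apart than the group means of 32.8 ± 9.77% and 39.1 ± 6.0% (SD, n = 3; adjusted p = 1.00, limma on the arcsine square root of the share). Most of either transcript is the same sequence, so this split rests on the fragments at the 5′ end.

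**Figure D2:**
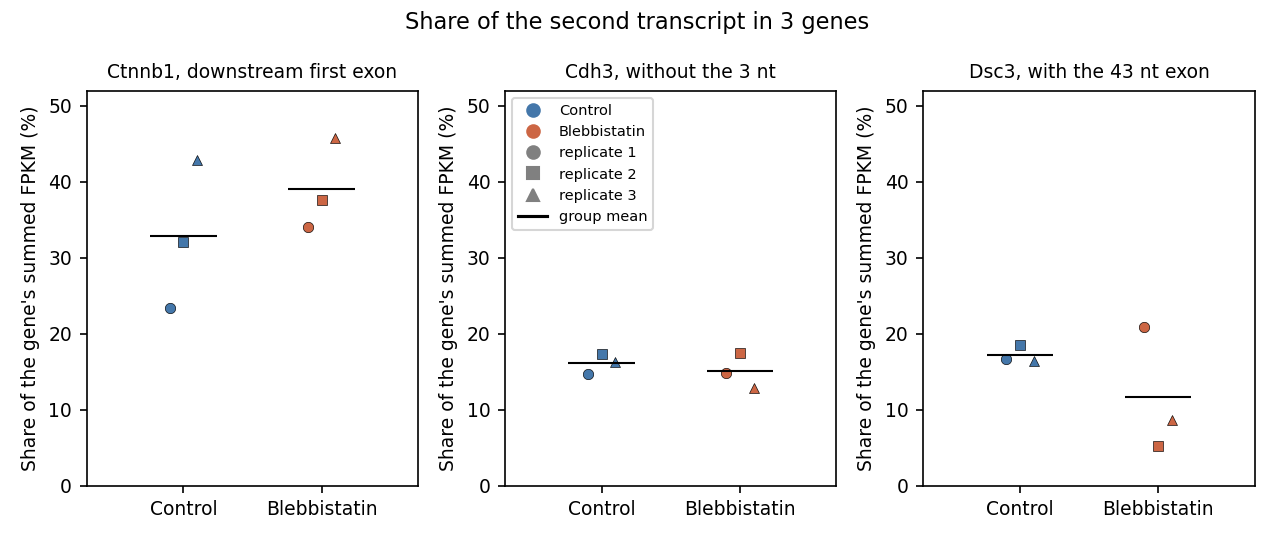
Share of the second annotated transcript in the summed FPKM of Ctnnb1, Cdh3 and Dsc3, in percent, by library, with a black line at the group mean. The groups overlap in all 3 panels, with the share of Ctnnb1 spread from 23.4% to 45.7% and that of Cdh3 between 12.9% and 17.4%.

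The 2 transcripts of Cdh3 differ by 3 nt at the start of exon 3, where splicing to either of a pair of neighbouring acceptor sites keeps the reading frame. The join of exons 2 and 3 is shown from the GENCODE M21 transcript, chr8:106511312-106511341 followed by chr8:106535408-106535440 on the plus strand of mm10, with the 3 optional bases in capitals, and then without them as the shorter transcript is annotated.
Cdh3 with the 3 bases: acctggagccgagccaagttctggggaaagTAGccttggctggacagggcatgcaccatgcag
Cdh3 without them: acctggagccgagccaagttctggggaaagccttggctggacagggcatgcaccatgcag
The shorter form took 14.7%, 17.3% and 16.3% of the gene in controls and 14.9%, 17.4% and 12.9% in treated libraries. It was the minor form in each of the 6 libraries, and its share did not pass (adjusted p = 1.00, limma). Of the 4 transcript shares tested, from 2 member genes, 0 had an unadjusted p under 0.05, against 4.66% of all 4997 shares tested. The groups overlapped for all 4, while 9.33% of all shares did not overlap, and 0.0% passed an adjusted p of 0.05.

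The desmosomal cadherin genes lie together on chromosome 18 between 19960930 and 20604526, and 4 of them are members. Dsg2, which encodes the desmoglein of simple epithelia, stood at 20.4, 25.1 and 21.2 FPKM in controls and at 25.6, 22.1 and 21.4 FPKM in treated libraries. Its groups overlapped (log2 fold change 0.05 ± 0.11, SE, adjusted p = 0.994, limma). Dsc2, the desmocollin of most epithelia, stood at 21.3, 21.0 and 16.6 FPKM in controls and at 21.2, 16.9 and 14.3 FPKM in treated libraries. These groups overlapped as well, and the 95% interval of the log2 difference ran from -0.52 to 0.18.

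Dsc3, a desmocollin known from the basal layers of stratified epithelia, had the highest log2 fold change of the 9 tested genes, at a far lower level than Dsc2. It stood at 1.96, 1.91 and 1.78 FPKM in controls and at 3.17, 2.83 and 2.47 FPKM in treated libraries. Each treated library lay above each control. The values rest on 276 to 348 fragments per control library and 370 to 484 per treated library, which came out whole to within 0.0019. The means were 1.88 ± 0.091 and 2.82 ± 0.348 FPKM (SD, n = 3), 50.2% apart. The log2 difference was 0.41 ± 0.11 (SE; limma, unadjusted p = 0.00513, adjusted p = 0.208). The 95% interval, from 0.16 to 0.65, is not adjusted for the number of genes tested.

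Set against its neighbour, the ratio of Dsc3 to Dsc2 was 0.0921, 0.0907 and 0.107 in controls and 0.149, 0.167 and 0.173 in treated libraries. The groups did not overlap (0.0966 ± 0.0091 and 0.163 ± 0.0122, exact permutation p = 0.1, two-sided, the smallest possible, adjusted p = 0.25 over the 5 ratios). Dsc3 thus supplied 8.43%, 8.31% and 9.68% of the FPKM of this pair in controls, and 14.3% and 14.7% in blebbistatin replicates 2 and 3, with replicate 1 between these and the controls. Beside this, the summed markers of basal and ductal epithelium overlapped between the groups. Of the 7 markers, 4 had a higher mean in treated libraries and the others did not. Trp63, Krt14 and Krt15, named next, are all among the 4. They were picked outside the rule, which gave markers by list totals, and do not stand for the 7. Values of the markers without a higher mean are not given. Of those with a higher mean, Trp63, the transcription factor of basal cells, was at 44.9 ± 1.73 and 48.7 ± 4.02 FPKM, and Krt14 at 140 ± 26.5 and 193 ± 52.1 FPKM (adjusted p = 0.613, limma). Krt15, another keratin of basal cells, stood at 38.3, 15.6 and 19.7 FPKM in controls and at 70.0, 27.4 and 43.7 FPKM in treated libraries. Its groups overlapped, with a log2 difference of 0.91 ± 0.38 (SE; limma, unadjusted p = 0.043, adjusted p = 0.498). The part of such cells in the values of Dsc3 was not tested.

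**Figure D3:**
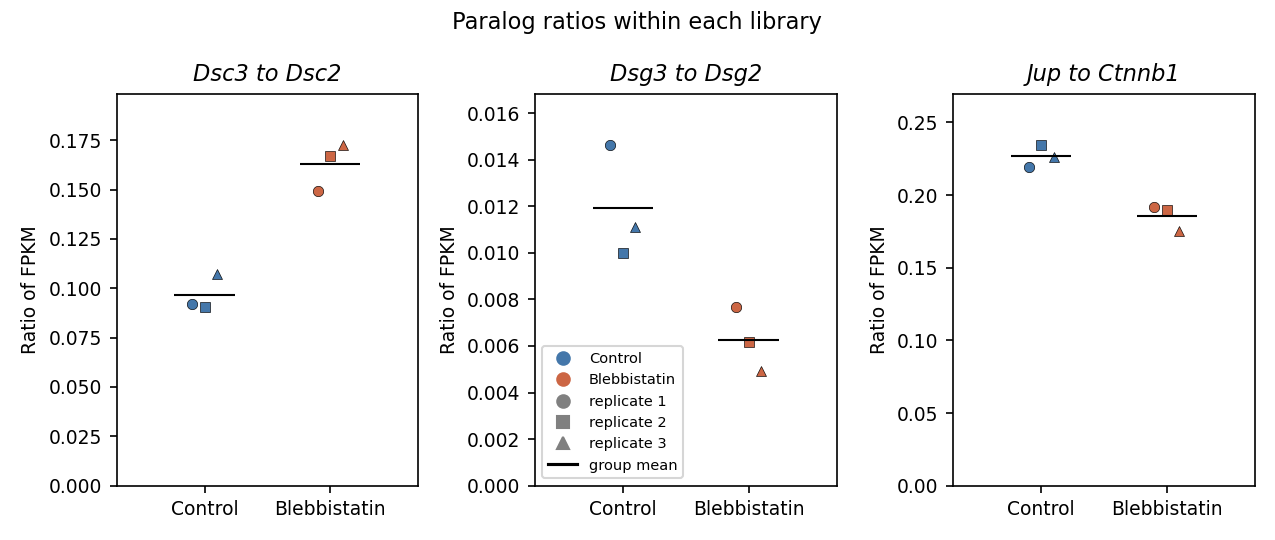
Ratio of FPKM between paralogs in each library, for Dsc3 to Dsc2, Dsg3 to Dsg2 and Jup to Ctnnb1, with a black line at the group mean and axes that start at 0. The treated libraries lie above all controls for Dsc3 to Dsc2 and below all controls for the other two.

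Desmocollin genes are known to be spliced into a longer a form and a b form whose shortened tail lacks the binding site of plakoglobin. The 2 annotated Dsc3 transcripts differ in that way, by an exon of 43 nt from 19963649 to 19963691 that shortens the coding sequence from 2688 to 2517 nt. The transcript without the exon, which encodes the longer tail, stood at 1.63, 1.55 and 1.49 FPKM in controls and at 2.51, 2.68 and 2.26 FPKM in treated libraries. It did not overlap between the groups (log2 fold change 0.44 ± 0.12, SE, adjusted p = 0.344, limma). Of 11 member transcripts tested it was the 1 without overlap, against 13.3% of all tested transcripts, and 0 passed, against 0.00692%.

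The transcript with the exon stood at 0.327, 0.351 and 0.293 FPKM in controls and at 0.664, 0.148 and 0.215 FPKM in treated libraries. Its share was 16.7%, 18.4% and 16.5% in controls and 20.9%, 5.24% and 8.69% in treated libraries. Blebbistatin replicate 1 lay above all controls and the other treated libraries below them. The share stood outside the test for genes of at least 5 FPKM, and with a minimum of 1 FPKM its adjusted p was 1.00 (limma).

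Dsg3, the desmoglein known from stratified epithelia and as the target of antibodies in pemphigus vulgaris, was the lowest member. It stood at 0.299, 0.251 and 0.236 FPKM in controls and at 0.197, 0.136 and 0.105 FPKM in treated libraries. Each treated library lay below each control, with means of 0.262 ± 0.033 and 0.146 ± 0.047 FPKM (SD, n = 3). The values rest on 35, 35 and 28 fragments in controls and 23, 16 and 12 in treated libraries. The exact 95% Poisson interval of the lowest control ran from 18.6 to 40.5 fragments and that of the highest treated library from 14.6 to 34.5. These intervals overlapped, but they cover only the closest pair of libraries. Summed by group, the fragments were 98 in controls and 51 in treated libraries. Depth was 29800000 to 35700000 fragments per control library and 29200000 to 30000000 per treated library. With no filter on low values, Dsg3 had an unadjusted p of 0.00902 and an adjusted p of 0.333 (limma). Dsg3 was 0.988% to 1.44% of the FPKM of Dsg2 and Dsg3 in controls and 0.489% to 0.763% in treated libraries (exact permutation p = 0.3 for the log2 ratio with a pseudocount of 1, adjusted p = 0.375). That pseudocount is larger than the level of Dsg3, and without it the log2 ratio to Dsg2 differed by -0.93 in place of -0.19, with an exact permutation p of 0.1, the smallest possible. The 5 measured markers of cornified epithelium summed to 4.36 to 4.47 FPKM in controls and 3.63 to 3.90 FPKM in treated libraries, also without overlap. Only 1 of the 5, Krt10, had a mean of at least 1 FPKM, and its groups overlapped, at 2.76 ± 0.187 and 2.66 ± 0.441 FPKM. The part of these markers in the values of Dsg3 was not tested.

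Pkp1, a plakophilin of the desmosomal plaque, stood at 21.8, 23.6 and 18.8 FPKM in controls and at 28.3, 18.8 and 18.2 FPKM in treated libraries. Blebbistatin replicate 1 was the highest of all 6, and the other treated libraries lay at the level of control replicate 3 or under it. The log2 fold change was 0.0030 ± 0.17 (SE, adjusted p = 0.999, limma), and without blebbistatin replicate 1 it was -0.19. Summed over Dsg2, Dsg3, Dsc2, Dsc3 and Pkp1, the desmosomal members came to 0.341 ± 0.0245 of the FPKM of Cdh1 and Cdh3 in controls and 0.324 ± 0.0423 in treated libraries (exact permutation p = 0.6, two-sided). Blebbistatin replicate 1 was the highest of the treated libraries in 8 of the 9 tested members, a count whose share over all tested genes was not computed. Blebbistatin replicate 3 was the lowest treated library in 8 of 9, as against 44.7% of all tested genes. Control replicate 3 was the lowest control in 7 of 9, as against 43.3%.

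The other genes of the desmosome were compared in the same way. Of 12 listed, 6 reached a mean of 1 FPKM, 2 with higher and 4 with lower log2 means, and 0 passed (limma). Of the 6, 0 had an unadjusted p under 0.05, against 9.36% of all tested genes. Perp, a membrane protein needed for desmosome assembly in stratified epithelia, was at 174 ± 23.2 and 200 ± 19.1 FPKM. Pkp2, another plakophilin, was at 3.98 ± 0.787 and 3.63 ± 0.617 FPKM. The plakins periplakin (Ppl) and envoplakin (Evpl) were at 9.56 ± 1.39 and 9.25 ± 2.48 FPKM and at 5.74 ± 0.234 and 5.67 ± 1.84 FPKM. Desmoplakin (Dsp), the link to keratin, stood at 51.3, 63.8 and 54.1 FPKM in controls and at 57.9 ± 13.4 FPKM (SD, n = 3) in treated libraries, where replicate 1, at 73.3 FPKM, was the highest, as for Pkp1. Dsp, Dsg1c and Dsc1 were chosen after their values were seen. The desmosomal cadherins of the outer epidermis were low, with Dsg1c between 0.217 and 0.382 FPKM and Dsc1 at or under 0.0996 FPKM in all libraries.

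Among other proteins of adherens junctions, 22 of 24 listed genes were tested, 12 with higher and 10 with lower log2 means, and 0 passed, while 5 had an unadjusted p under 0.05 (limma), against 9.36% of all tested genes. The groups did not overlap for 5 of the 22, against 14.3%. Their median log2 fold change was 0.011. Ctnnal1, which encodes the α-catenin relative α-catulin, stood at 15.2, 14.6 and 15.2 FPKM in controls and at 19.0, 21.4 and 20.2 FPKM in treated libraries. The groups did not overlap (log2 fold change 0.41 ± 0.08, SE, adjusted p = 0.110, limma).

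Ajuba, a LIM protein that binds α-catenin and is recruited to junctions under tension, stood at 49.1, 38.6 and 41.5 FPKM in controls and at 71.6, 54.8 and 52.5 FPKM in treated libraries, each of which lay above each control (adjusted p = 0.289, limma). Pvrl1, which encodes nectin-1, was at 12.7 ± 0.686 and 15.1 ± 1.47 FPKM, also without overlap (adjusted p = 0.471, limma). Pkp4, an armadillo protein related to p120-catenin, stood at 43.3, 45.6 and 43.2 FPKM in controls and at 62.4, 48.2 and 49.4 FPKM in treated libraries. Each treated library lay above each control (unadjusted p = 0.0479, adjusted p = 0.523, limma). Ctnnd1, which encodes p120-catenin, the stabiliser of E-cadherin at the membrane, stood at 108, 145 and 107 FPKM in controls and 121, 118 and 105 FPKM in treated libraries. Vcl, which encodes vinculin, the partner of stretched α-catenin, was at 47.0, 67.7 and 57.3 FPKM and at 61.3, 65.1 and 58.4 FPKM. The groups of both genes overlapped. Pkp4, Ctnnd1 and Vcl were chosen after their values were seen.

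**Figure D4:**
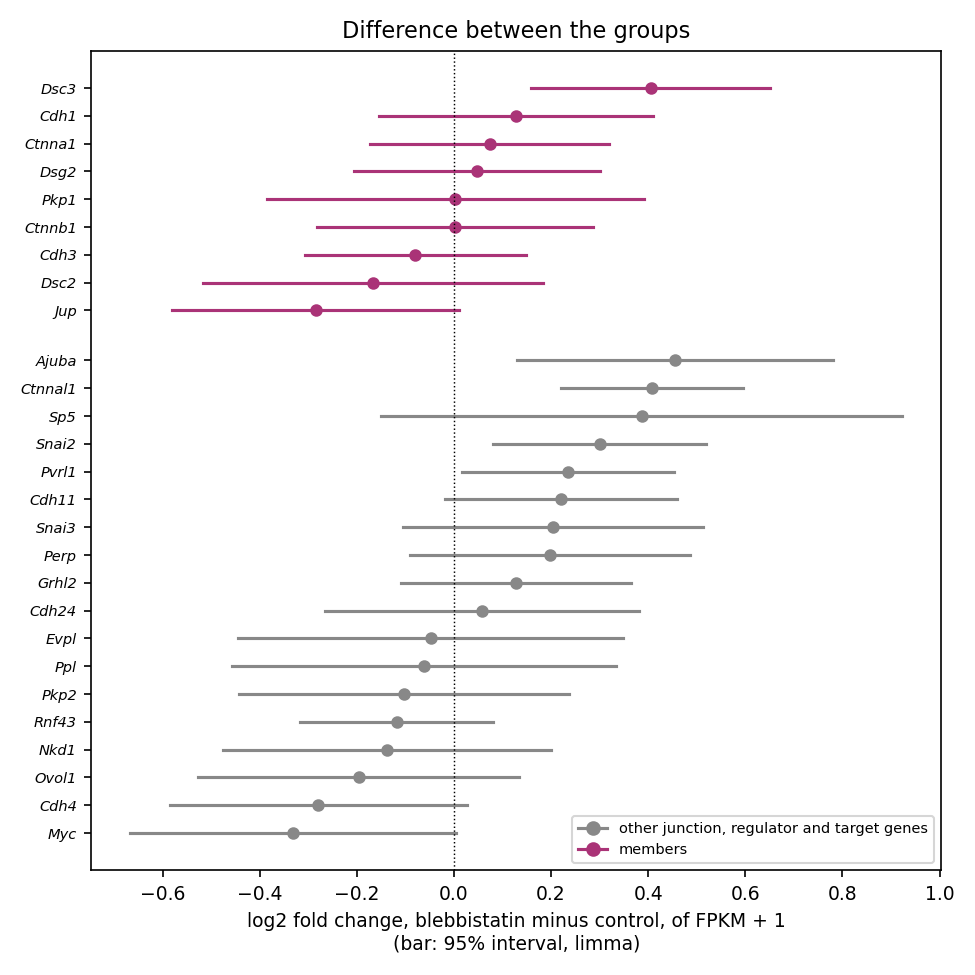
Log2 fold change of FPKM + 1, blebbistatin minus control, with its 95% interval from limma, for the 9 tested members (purple) and 18 other junction, regulator and target genes named by rule (grey). Among the members, the interval of Dsc3 alone leaves out 0, and no gene shown passed the adjusted threshold.

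Transcription factors that act on cadherin genes were tested in 13 of 18 cases, 8 with higher and 5 with lower log2 means, and 0 passed (limma). At an unadjusted p under 0.05 there was 1 of 13, against 9.36% of all tested genes. The groups did not overlap for 1 of 13, against 14.3%. In both cases the gene was Snai2, which encodes Slug, a repressor of E-cadherin transcription in other settings. It stood at 19.3, 16.7 and 18.9 FPKM in controls and at 21.0, 22.8 and 24.5 FPKM in treated libraries. The groups did not overlap (log2 fold change 0.30 ± 0.10, SE, adjusted p = 0.304, limma), while Cdh1 itself did overlap. Snai3 was at 0.874 ± 0.081 and 1.17 ± 0.307 FPKM. Ovol1 was at 3.86 ± 0.602 and 3.25 ± 0.643 FPKM, and Grhl2, an activator of Cdh1 in epithelia, at 29.2 ± 2.01 and 32.0 ± 3.51 FPKM. The repressors Zeb1 and Zeb2, chosen after their values were seen, were at or under 0.0896 and 0.0558 FPKM in all 6 libraries.

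For the second role of β-catenin, 7 of 12 genes activated by it in the nucleus were tested, 4 with higher and 3 with lower log2 means. None passed (limma), and 0 of 7 had an unadjusted p under 0.05, against 9.36% of all tested genes. Myc was at 76.6 ± 7.54 and 61.2 ± 11.7 FPKM, and Sp5 at 3.36 ± 0.940 and 4.81 ± 1.92 FPKM. Rnf43, an inhibitor of Wnt receptors, was at 3.95 ± 0.177 and 3.56 ± 0.081 FPKM, without overlap (adjusted p = 0.850, limma). It was the 1 of the 7 without overlap, against 14.3% of all tested genes. Nkd1, another inhibitor of the pathway, was at 1.32 ± 0.258 and 1.11 ± 0.306 FPKM. Axin2, a common readout of the pathway, stayed under the filter at 0.569 to 0.817 FPKM, and its groups overlapped. Lgr5, a receptor for R-spondins, was also under the filter, at 0.252, 0.449 and 0.227 FPKM in controls and 0.0687, 0.0541 and 0.0861 FPKM in treated libraries. Each treated library lay below each control for Lgr5, which was outside the main test. With no filter on low values, 0 of 83 other listed genes, Lgr5 among them, passed (limma). Axin2 and Lgr5 were chosen after their values were seen.

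The remaining members lie on mm10 as follows. Ctnnb1 spans 120933400 to 120960507 on chromosome 9, Jup 100368856 to 100397790 on chromosome 11 and Pkp1 135871395 to 135919024 on chromosome 1. On chromosome 18, Dsc3 runs from 19960930 to 20002097, Dsc2 from 20030798 to 20059505, Dsg3 from 20510304 to 20541310, Dsg2 from 20558116 to 20604526 and Ctnna1 from 35118912 to 35254775. In the deposited annotation no exon of any of the 10 genes, or of the 18 others named by rule, overlaps an exon of another gene, so their values share no fragments by position.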

How the data were processed

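RNA was isolated on silica columns and made into libraries with a TruSeq kit, per the labels' protocols. The submitters' processing notes name TopHat2 2.0.13, Bowtie2 2.2.3 and Cufflinks 2.2.1 with build mm10. The authors deposited FPKM per gene and per transcript, per the file headers, and a RefSeq annotation. Strand handling is not stated there. Columns were matched by name, BB being read as the drug and the unnumbered column of each group as its replicate 1.

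FPKM are not counts, so limma 3.58.1 in R 4.3.3 was run on log2(FPKM + 1), with a mean-variance trend, over the 11540 genes and 14460 transcripts with a mean of at least 1 FPKM. Log2 fold changes are on that scale and understate those of low genes. P-values were Benjamini-Hochberg adjusted over all features tested, with a threshold of 0.05. Shares were tested for genes with a summed mean of at least 5 FPKM. Fragments were recovered from the steps of low values: of genes with 1 transcript and up to 10 fragments, 80.8% to 84.2% of values lay within 0.1 of a whole number. Intervals on fragments cover counting error only. The fit was tested on simulated data. Members and lists were chosen with earlier results of these data known. The text names all members, the 4 genes of smallest p per list, and any past the threshold, except 1 gene that is not reported here and is kept in the counts.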

Additional observations from a re-analysis of the deposited data

How the results depend on the processing

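None of the 9 tested members or their transcripts passed with another pseudocount, filter or scaling, array weights, the replicate block or any 1 library left out. None of their shares passed under another minimum gene sum, array weights, the block or any 1 library left out, and no pseudocount or scaling was varied for shares. The count over all genes was 9, and became 27 when the minimum mean was 5 FPKM, 1 when low genes were kept, 57 with array weights, 14 under quantile scaling, 2 under median-of-ratios rescaling and 1 to 13 without any 1 library (1 without control replicate 1, 2 without control replicate 2 or blebbistatin replicate 1, 4 without blebbistatin replicate 2). With the replicate number as a block it was 144, a pairing the labels do not state. Same-numbered libraries deviated together with r = 0.18, 0.094 and 0.25, and each library correlated best with its own number, a hint from the data and not the design. Of the other listed genes, 1 passed with array weights and 1 with the block (Ajuba, 0.46), and the cause was not tested.

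Of 116 alternative values of member log2 fold changes 103 kept their sign and 13 did not, all for Ctnnb1, Dsg2 and Pkp1. Ctnnb1 was -0.022 after quantile normalization, -0.0096 after median-of-ratios rescaling and -0.093 to 0.069 without any 1 library. Dsg2 was -0.0024 with array weights and -0.029 to 0.13 without any 1 library. Pkp1 was -0.0078 after quantile normalization, -0.0079 after median-of-ratios rescaling, -0.059 with array weights and -0.19 to 0.11 without any 1 library. Cdh24 was -0.063 with array weights and -0.022 to 0.21 without any 1 library. Leaving out 1 library gave -0.21 to 0.017 for Pkp2, -0.25 to 0.063 for Ppl, -0.26 to 0.091 for Evpl, -0.34 to 0.028 for the upstream Ctnnb1 transcript, and, on the arcsine scale, -0.031 to 0.00018 and -0.00018 to 0.031 for the shares of the short and long Cdh3 transcripts. Without any 1 library Cdh1 ranged from 0.059 to 0.24, Ctnna1 from 0.0013 to 0.14, Cdh3 from -0.14 to -0.020, Dsc2 from -0.31 to -0.040, Dsc3 from 0.34 to 0.47 and Jup from -0.38 to -0.18. All 5 ratios kept their direction without a pseudocount and without any 1 library.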
